A study of Homo sapiens with 25 samples.

Results

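The zinc finger genes of human chromosome 19 were taken as every protein-coding gene there whose symbol starts with ZNF and a number, in the gene table of assembly GRCh38.p14. The rule found 250 genes, 17.2% of the 1451 protein-coding genes of the chromosome, out of 19974 on chromosomes 1 to 22 and X. The data were ChIP-seq peak lists of 4 established lines of lung adenocarcinoma, untreated and unedited as far as the labels say, grown in RPMI with fetal bovine serum and fixed with formaldehyde. Series of values for the lines below run in 1 line order: NCI-H2087 first, NCI-H358 second, then NCI-H441, and HCC364 last. NKX2-1, H3K27ac and H3K4me1 were precipitated in all 4 lines, and CTCF, EP300, FOXA1, FOXA2, H3K4me3, RNAPolII, SOX2 and c-Jun in NCI-H2087 as well, which gives 20 lists and 1 library for each line and antibody. The series title places the study around the amplified dosage of NKX2-1, a homeodomain factor that marks the lung lineage.

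Most of these genes encode proteins with an array of C2H2 zinc fingers, each finger reading a few bases of DNA, and many also carry a KRAB domain that recruits the corepressor TRIM28 and the H3K9 methyltransferase SETDB1 to silence transposable elements. They arose by repeated local duplication and sit in long tandem clusters on both arms of chromosome 19, with the fingers usually encoded by the last exon. H3K4me3 marks active promoters, H3K27ac active promoters and enhancers, H3K4me1 the flanks of promoters and enhancers, and EP300 is a histone acetyltransferase. CTCF binds insulators and loop anchors. FOXA1 and FOXA2 are endoderm pioneer factors, c-Jun is a subunit of AP-1, and SOX2 is a factor of stem cells and of the proximal airway.

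The members had a median length of 23.3 kb, against 12.7 kb for the other 1201 protein-coding genes of chromosome 19 and 24.7 kb for the 267 ZNF genes on other chromosomes. The shortest was ZNF580 at 2.47 kb and the longest ZNF536 at 488 kb. A peak was assigned to a gene when it overlapped the gene body extended by 5 kb on each side, and these windows overlapped those of another member for 129 of the 250. Starts were annotated for 219 members, with 271 starts in all, and either gene end was used for the other 31. A total of 4 symbols were readthrough or divergent transcripts (ZNF559-ZNF177, ZNF816-ZNF321P, ZNF765-ZNF761 and ZNF470-DT). Members are neighbours and relatives of one another, so counts of them are not counts of independent replicates.

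The promoters below are RefSeq sequence of GRCh38.p14, 250 bases before to 50 bases after the start, 5′ to 3′ on the gene's strand. They show both ends of the range of occupancy and the motifs searched. ZNF865 and ZNF444 had high NKX2-1 folds at a start in all 4 lines, ZNF546 held the NKX2-1 core, and ZNF208, ZNF492 and ZNF404 had no peak in any of the 20 lists. The first transcribed base counts as position 0. Capitals mark CCGGAAG, a core recognised by ETS factors, or CACTTGA, a core recognised by NKX2-1, on either strand.
ZNF865 promoter (chr19:55605397-55605696, plus strand): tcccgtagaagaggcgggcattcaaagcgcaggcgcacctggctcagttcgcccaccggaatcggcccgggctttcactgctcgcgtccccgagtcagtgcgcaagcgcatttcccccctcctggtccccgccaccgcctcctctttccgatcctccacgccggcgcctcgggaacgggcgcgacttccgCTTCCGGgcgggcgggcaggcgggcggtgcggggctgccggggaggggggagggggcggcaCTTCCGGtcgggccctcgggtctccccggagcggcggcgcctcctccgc
ZNF444 promoter (chr19:56141037-56141336, plus strand): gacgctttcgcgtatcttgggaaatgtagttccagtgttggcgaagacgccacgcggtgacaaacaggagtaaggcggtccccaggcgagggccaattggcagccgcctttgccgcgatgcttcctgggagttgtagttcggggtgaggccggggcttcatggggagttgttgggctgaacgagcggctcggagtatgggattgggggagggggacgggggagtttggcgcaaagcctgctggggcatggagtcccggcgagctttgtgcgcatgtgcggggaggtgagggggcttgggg
ZNF546 promoter (chr19:39996810-39997109, plus strand): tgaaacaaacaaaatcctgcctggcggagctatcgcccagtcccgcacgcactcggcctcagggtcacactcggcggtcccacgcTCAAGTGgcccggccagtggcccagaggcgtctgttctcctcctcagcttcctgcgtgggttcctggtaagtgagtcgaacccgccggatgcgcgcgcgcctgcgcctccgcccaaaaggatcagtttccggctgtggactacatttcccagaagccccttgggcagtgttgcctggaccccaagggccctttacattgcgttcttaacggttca
ZNF208 promoter (chr19:22010894-22011193, minus strand): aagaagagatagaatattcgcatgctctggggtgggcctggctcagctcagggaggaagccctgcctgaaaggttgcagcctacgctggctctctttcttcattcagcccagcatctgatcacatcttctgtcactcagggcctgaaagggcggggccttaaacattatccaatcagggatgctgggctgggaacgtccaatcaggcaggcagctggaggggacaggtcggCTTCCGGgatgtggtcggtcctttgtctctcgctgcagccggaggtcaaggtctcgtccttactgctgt
ZNF492 promoter (chr19:22634074-22634373, plus strand): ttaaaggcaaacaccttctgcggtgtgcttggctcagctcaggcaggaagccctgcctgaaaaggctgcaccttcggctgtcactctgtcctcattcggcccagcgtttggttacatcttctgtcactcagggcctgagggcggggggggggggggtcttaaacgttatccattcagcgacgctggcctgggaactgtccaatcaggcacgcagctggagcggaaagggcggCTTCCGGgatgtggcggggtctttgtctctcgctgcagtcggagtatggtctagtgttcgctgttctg
ZNF404 promoter (chr19:43883915-43884214, minus strand): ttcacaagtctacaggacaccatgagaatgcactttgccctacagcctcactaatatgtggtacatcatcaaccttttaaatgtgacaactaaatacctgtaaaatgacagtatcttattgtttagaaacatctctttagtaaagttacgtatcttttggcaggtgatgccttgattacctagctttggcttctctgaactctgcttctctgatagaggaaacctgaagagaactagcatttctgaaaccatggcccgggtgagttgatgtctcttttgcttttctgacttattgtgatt

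The ETS core CCGGAAG was present in 41.0% of the 271 member promoters, against 13.2% of 1277 promoters of the other chromosome 19 genes, 28.4% of 292 promoters of ZNF genes elsewhere and 12.8% of all 22156 promoters in the table. Its 125 matches lay close to the start, with a median position of -18 and quartiles of -38 and 3.00. The NKX2-1 core CACTTGA was in 0.738% of member promoters (ZNF546 and ZNF793) and in 2.16% of all promoters. ZNF444, with the highest NKX2-1 fold of any member start in NCI-H2087, held neither. The other cores searched on both strands were at 6.64% for AP-1 (TGANTCA, 6.16% of all), 1.11% for FOXA (TGTTTAC, 2.85%), 2.95% for the palindrome of NRF1 (1.50%), 1.11% for ZNF143 (0.307%), 0.738% for Kaiso (0.569%) and 5.17% for YY1 (AAGATGGC, 3.53%). The ETS and YY1 cores can share letters, and overlapping matches of them occurred in 2 member promoters and 6 of all; no other pair of cores overlapped in a member promoter. Paralogs share promoter sequence: the promoters of ZNF208 and ZNF492 were 76.8% identical over their alignment, with the ETS core at -19 and -18, while ZNF208 and ZNF404 were 48.6% identical. A core in the window is a match of letters, not a measured site. The ETS core was present in 7 of the 18 member promoters (38.9%) with no H3K4me3 within 1 kb of the start. It was in 41.1% of the other 253. In other chromosome 19 genes the shares were 3.80% without H3K4me3 and 18.2% with it, and in ZNF genes elsewhere 6.25% and 32.8%. Over all promoters the share was 2.94% without H3K4me3 and likewise higher with it. The 7 member promoters are few and include the paralogs ZNF208 and ZNF492, and these shares were not tested.

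The question put to the 3 antibodies run in every line was whether the zinc finger genes differ from other genes in occupancy and from line to line. NKX2-1 was found at most members in every line, 189, 215, 212 and 220 of 250 in line order (75.6%, 86.0%, 84.8% and 88.0%). Over all protein-coding genes the shares were 74.2%, 70.9%, 77.1% and 78.5%. The members lay closest to the level of all genes in NCI-H2087. The members exceeded the other genes of chromosome 19 by 13.6 ± 4.48 percentage points (SD, n = 4 lines), and were higher in 4 of 4 lines. The members are longer, and against chromosome 19 genes of similar length the NKX2-1 difference was 9.56 points. It was 7.78 with flanks of 10 kb and 24.2 with no flank. The exact two-sided sign-flip permutation test gave p = 0.125, the smallest value that 4 lines allow, and 0.188 after Benjamini-Hochberg adjustment over 3 antibodies, so a threshold of 0.05 could not be reached. Against ZNF genes elsewhere the difference was 4.48 ± 4.32 points (3 of 4 lines higher, exact permutation p = 0.250). At gene starts the difference was 21.6 to 31.8 points from other chromosome 19 genes over the 4 lines and 8.66 ± 6.30 from ZNF genes elsewhere, with NKX2-1 within 1 kb of a start in 61.2%, 67.2%, 64.4% and 80.8% of members, against 45.8%, 42.7%, 45.1% and 50.8% of all genes.

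H3K27ac was present at 225, 233, 224 and 226 members in line order, or 89.6% to 93.2%, against 71.7%, 69.6%, 69.9% and 72.1% of all genes. No line stood out among the 4. Members exceeded other chromosome 19 genes by 20.6 ± 2.23 percentage points (SD, n = 4, higher in 4 of 4 lines, exact permutation p = 0.125) and ZNF genes on other chromosomes by 5.31 ± 1.30 (4 of 4 lines, exact permutation p = 0.125, adjusted 0.375). At starts, where all genes stood at 58.0%, 57.1%, 56.2% and 58.7%, the difference from other chromosome 19 genes was 33.4 ± 2.42 points. The folds at member starts were high within each list. Their median was 11.1, 19.2, 18.3 and 14.9 in line order, against 7.18, 8.14, 8.38 and 6.70 over all peaks of the same lists. The highest was that of ZNF274 in NCI-H2087 (48.2), of ZNF460 in NCI-H358 (104) and HCC364 (55.5) and of ZNF880 in NCI-H441 (72.8). The NKX2-1 folds at member starts had medians of 7.40, 7.52, 8.04 and 10.2 against 8.29, 7.78, 9.14 and 9.03, above the list in HCC364 and below it in the other 3 lines.

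H3K4me1 divided the lines at the deposited threshold. The split against other genes depended on that threshold, as the closing part on processing shows. It was present at 148 members (59.2%) in NCI-H2087 and 154 (61.6%) in HCC364, but at 225 in NCI-H358 and 222 (88.8%) in NCI-H441, while in line order all genes stood at 74.5%, 76.0%, 77.7% and 76.4%. The members were therefore above all genes in NCI-H358 and NCI-H441 and below them in NCI-H2087 and HCC364. The H3K4me1 lists held 91807, 113605, 99062 and 121789 peaks in line order. The part of list length or read depth in the split was not tested. Within 1 kb of a start, H3K4me1 was at 35.6%, 48.4%, 72.4% and 27.2% of members, against 42.1%, 43.7%, 52.6% and 35.0% of all genes. The mean difference from other chromosome 19 genes was 5.98 ± 14.6 percentage points (SD, n = 4, 3 of 4 lines higher, exact permutation p = 0.500), with HCC364 at -13.8. Against chromosome 19 genes of similar length it was 2.09, with NCI-H2087 at -0.296. Against ZNF genes elsewhere it was -5.72 ± 12.9 (2 of 4 lines higher, exact permutation p = 0.500), with NCI-H2087 at -22.4. The plot of shares by line shows these positions for each antibody.

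**Figure D1:**
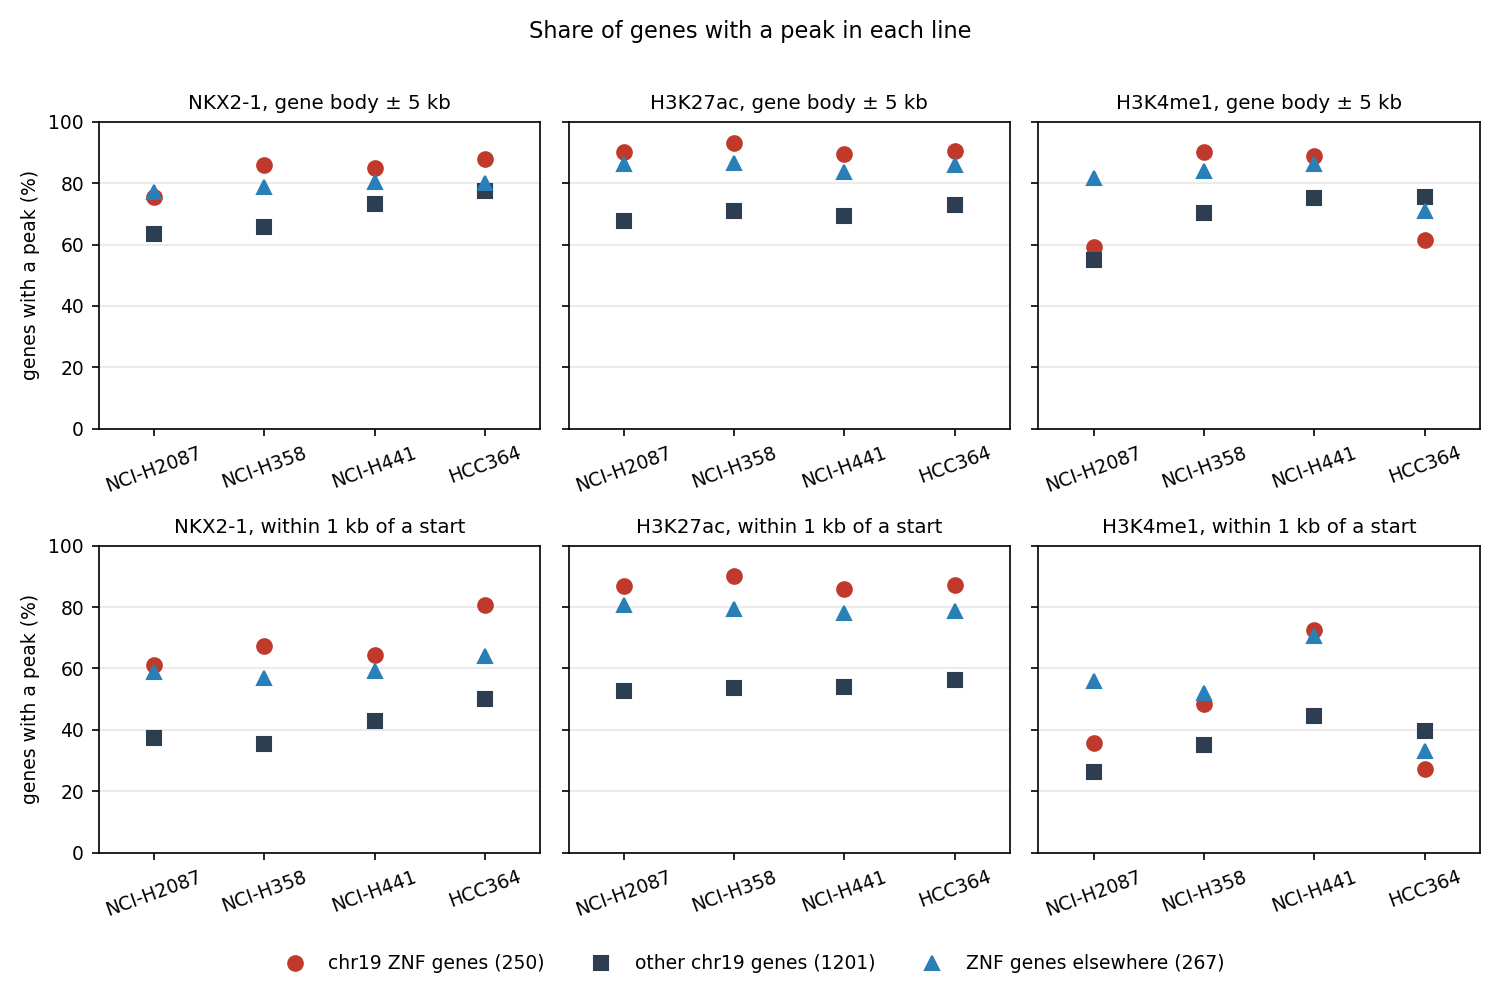
Percent of genes with a peak of NKX2-1, H3K27ac or H3K4me1 (columns) in each of 4 lines (x axis), over the gene body and 5 kb on each side (upper row) and within 1 kb of a start (lower row), 1 library per point. Circles are the 250 members, squares the other 1201 chromosome 19 genes and triangles the 267 ZNF genes elsewhere; for H3K4me1 the members stand at 88.8% in NCI-H441, 59.2% in NCI-H2087 and 61.6% in HCC364.

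The same split appeared gene by gene. H3K4me1 was found in NCI-H358 and NCI-H441 and in neither other line at 35 members, against 1.23% of all genes. These included ZNF350, ZNF432, ZNF480, ZNF614, ZNF836, ZNF841 and ZNF880 in the cluster that runs from ZNF175 to ZNF331. A further 37 members lacked H3K4me1 only in NCI-H2087 (3.75% of all genes) and 30 only in HCC364 (3.97%). Only 108 members (43.2%) had H3K4me1 in all 4 lines, against 62.2% of all genes. H3K27ac was the most constant, in all 4 lines at 212 members (84.8%, all genes 61.6%), and NKX2-1 was in all 4 at 164 (65.6%, all genes 61.0%). NKX2-1 was missing only in NCI-H2087 at 23 members (all genes 3.02%), and 12 of these, from ZNF175 to ZNF525, belong to the same ZNF175 to ZNF331 cluster. It was missing only in NCI-H358 at 7 members (5.39%), only in NCI-H441 at 8 (1.51%) and only in HCC364 at 4 (2.09%).

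NKX2-1 at starts went with acetylation in each line, among the members and among all genes. Of the member starts with H3K27ac, 68.7%, 72.4%, 73.5% and 92.7% also had NKX2-1 in line order, against 73.2%, 69.2%, 73.9% and 79.8% of acetylated starts of all genes. Of the starts without H3K27ac, 4 of 33, 5 of 25, 3 of 35 and 0 of 32 had NKX2-1, against 7.81%, 7.46%, 8.07% and 9.67% over all genes. HCC364 had the most NKX2-1 starts found in a single line: 19 members had NKX2-1 at a start in HCC364 only (all genes 4.47%), among them ZNF543, ZNF780A and ZNF850. The other lines had 8 (NCI-H358, 1.58%), 2 (NCI-H2087, 1.75%) and 1 (NCI-H441, 1.68%). ZNF543, bound in its whole window only in HCC364, had an NKX2-1 fold of 8.49 at its start there, while its start carried H3K27ac in all 4 lines, at folds of 10.8, 30.8, 26.9 and 42.8. The strongest NKX2-1 starts were shared. ZNF865 had folds of 21.9, 32.8, 23.4 and 47.9 in line order, and those of ZNF444 ran from 21.3 in HCC364 to 40.3 in NCI-H2087. Both genes were above the list median of 7.78 to 9.14 in every line.

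Along the gene, NKX2-1, H3K27ac and H3K4me1 peaks gathered at the 5′ end and thinned toward the 3′ end. In the 193 members of at least 10 kb with a known strand, the first of 5 equal parts of the gene held 48.8%, 45.0%, 36.1% and 52.2% of the NKX2-1 summits inside it in line order, against 34.2%, 30.3%, 30.6% and 33.9% in 587 other chromosome 19 genes. For H3K27ac the first part held 70.6%, 59.6%, 63.6% and 72.4%. The last part, where the finger exon usually lies, held 4.52%, 7.82%, 5.26% and 1.84% of H3K27ac summits and 2.68%, 8.38%, 6.27% and 3.53% of H3K4me1 summits. In the other chromosome 19 genes it held 9.62%, 12.7%, 11.3% and 13.4% of H3K27ac summits and 10.7%, 14.0%, 12.6% and 11.2% of H3K4me1 summits. All 4 lines showed the lower share in members for each of the 3 antibodies, but this was not tested. Other antibodies of NCI-H2087 did not all show a lower share in the last part: it was 13 of 81 member summits against 14.3% for FOXA1, 18.1% against 12.1% for FOXA2 and 21.7% of only 23 summits against 15.2% for c-Jun. For CTCF the share was 19.4% of 93 summits against 21.3% of 661, but the 18 member summits lay in 10 genes, 5.18% of members against 20.8% of the other genes.

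**Figure D2:**
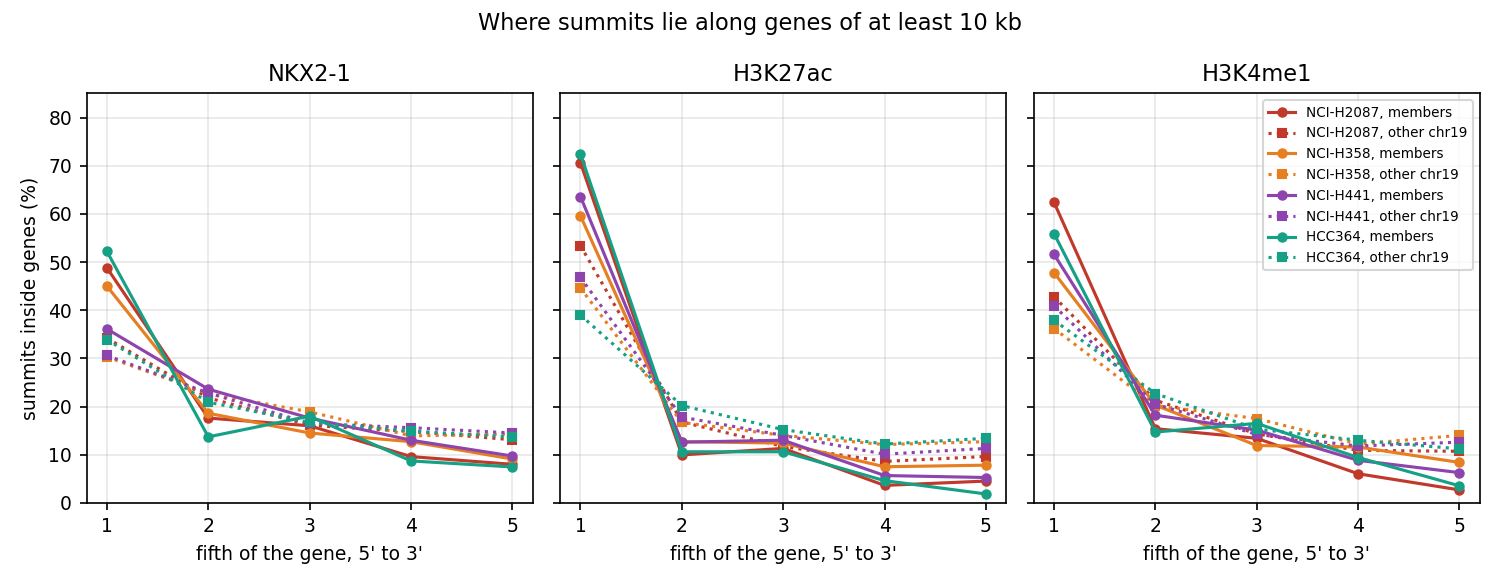
Percent of the summits inside a gene (y axis) that fall in each of its 5 equal parts from 5′ to 3′ (x axis), for NKX2-1, H3K27ac and H3K4me1, 1 line colour per cell line. Solid lines are 193 members and dotted lines 587 other chromosome 19 genes, all of at least 10 kb; the H3K27ac summits of members stand at 59.6% to 72.4% in the first part and at 1.84% to 7.82% in the last.

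Some members were bound or marked in 1 line only, called private below. This held for NKX2-1 at 18 members (7.20%, all genes 6.38%), for H3K27ac at 6 (2.40%, 6.36%) and for H3K4me1 at 10 (4.00%, 5.91%). NKX2-1 was private to NCI-H2087 at 1 member (all genes 1.02%), to NCI-H358 at 9 (1.04%), to NCI-H441 at 1 (1.54%) and to HCC364 at 7 (2.78%). The private members of NCI-H358 included ZNF98, ZNF534 and ZNF677 with 2 peaks each and ZNF723 with 1. ZNF677 carried H3K27ac at its start at 12.1 in NCI-H2087 and 40.6 in NCI-H358 and no H3K27ac peak in NCI-H441 or HCC364. In HCC364, ZNF536, a neuronal regulator and the longest member, had 3 NKX2-1 peaks with no H3K27ac or H3K4me1 peak in any line. ZNF878 had 1 peak with a fold of 12.5 at its start and H3K27ac in NCI-H358 and HCC364. ZNF439 had 1 peak away from its start. ZNF358 was the NCI-H2087 case and ZNF836 the NCI-H441 case, with 1 peak each.

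H3K27ac was private to NCI-H358 at ZNF534 (1747 bp covered), ZNF556 (707 bp) and ZNF676 (704 bp), 3 members against 1.32% of all genes. It was private to NCI-H2087 at ZNF835 (306 bp, all genes 1.57%), to NCI-H441 at ZNF257 (545 bp, 0.886%) and to HCC364 at ZNF285 (480 bp, 2.58%). H3K4me1 was private to NCI-H358 at 10 members (all genes 1.50%), led by ZNF582 with 5714 bp covered and ZNF728 with 2698 bp, and to no other line at any. ZNF534 was private to NCI-H358 for all 3 antibodies, with 2 NKX2-1, 1 H3K27ac and 2 H3K4me1 peaks there and none in the other lines. With single peaks deciding most of these calls, the counts depended on the threshold, as the closing part on processing shows.

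In NCI-H2087, where 11 antibodies were run, the members carried H3K4me3, H3K27ac and RNAPolII more often than all genes, and CTCF, FOXA1, FOXA2, c-Jun and SOX2 less often. Against the other genes of chromosome 19 the members were lower for CTCF, c-Jun and SOX2 and slightly higher for FOXA1 and FOXA2. H3K4me3 was present at 239 members (95.6%, exact binomial 95% interval 92.3% to 97.8%, for counting only) against 75.2% of all genes. RNAPolII was at 217 (86.8%, all genes 63.8%). CTCF was at 127 (50.8%), against 75.8% of all genes, 70.8% of other chromosome 19 genes and 65.5% of ZNF genes elsewhere. FOXA1 was at 101 members (40.4%, all genes 60.1%, other chromosome 19 genes 38.1%) and FOXA2 at 115 (46.0%, 63.6% and 39.1%). The AP-1 subunit c-Jun was at 27 (10.8%, 33.9% and 20.0%) and SOX2 at 7 (2.80%, 15.7% and 3.75%). No member had SOX2 within 1 kb of a start (all genes 1.08%). EP300 was at 74 members (29.6%, all genes 24.1%), close to the 29.2% of ZNF genes elsewhere, and at the starts of 64 (25.6%, all genes 13.6%, ZNF genes elsewhere 19.1%). At starts c-Jun was at 6 members (2.40%, all genes 5.50%), CTCF at 69 (27.6%, all genes 32.4%, other chromosome 19 genes 25.8%), FOXA1 at 43 (17.2%, 20.5% and 12.2%) and FOXA2 at 43 (17.2%, 21.7% and 11.8%).

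**Figure D3:**
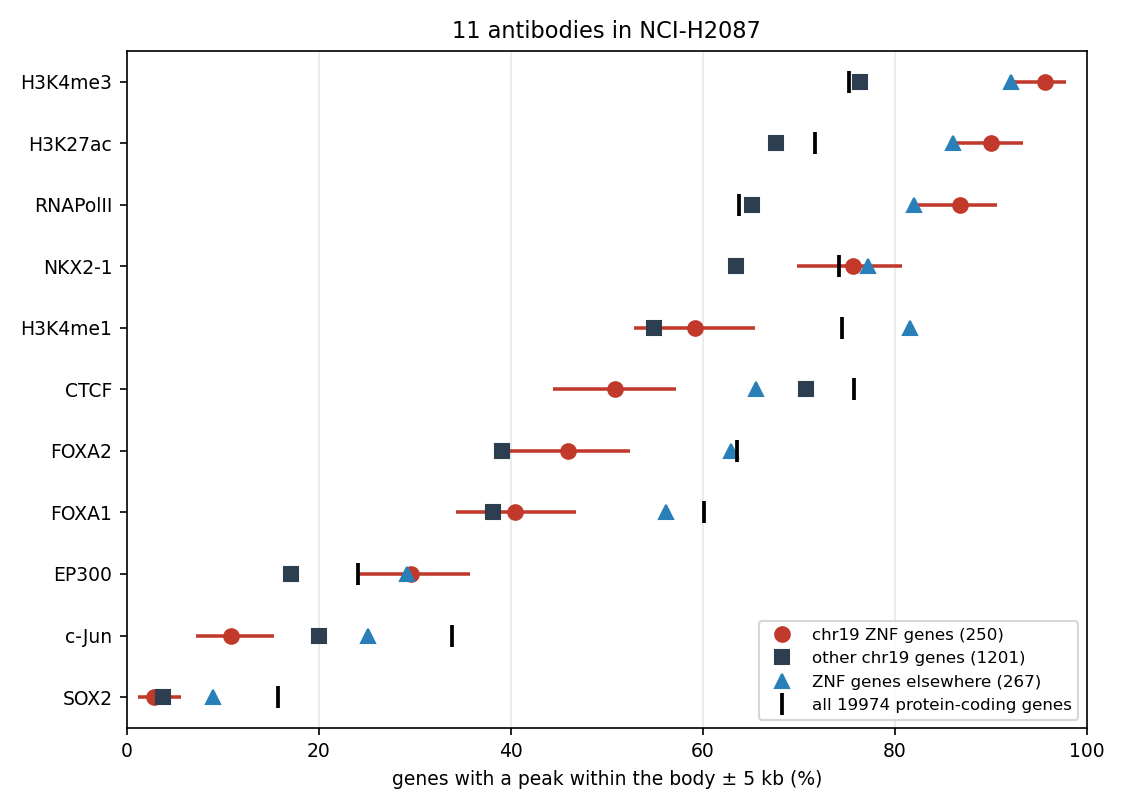
Percent of genes with a peak within the gene body and 5 kb on each side (x axis) for the 11 antibodies of NCI-H2087 (y axis), 1 library each. Circles with bars are the 250 members with exact binomial 95% intervals, squares other chromosome 19 genes, triangles ZNF genes elsewhere and upright marks all 19974 genes; members lie to the right of all genes for H3K4me3 (95.6% against 75.2%) and to the left for CTCF (50.8% against 75.8%).

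At the starts, H3K4me3, H3K27ac and RNAPolII came together at 201 members (80.4%, all genes 52.1%). H3K4me3 with H3K27ac and no RNAPolII was found at 16 (all genes 4.31%), H3K4me3 with RNAPolII and no H3K27ac at 4 (1.08%) and H3K4me3 alone at 13 (9.26%). No member start had H3K27ac or RNAPolII without H3K4me3, and 16 (all genes 31.1%) had none of the 3. The H3K4me3 peak at a start had a median width of 1884 bp, close to the 1922 bp of other chromosome 19 genes and under the 2250 bp of all genes. Its median fold was 96.0 against 50.1 over the list, with ZNF490 at 206. The widest were those of ZNF580 and ZNF581, neighbours that share 1 peak of 4802 bp, then ZNF114 at 3937 bp, ZNF225 at 3114 bp and ZNF850 at 2979 bp. RNAPolII was highest at the starts of ZNF274, itself a zinc finger protein that binds the 3′ ends of zinc finger genes, at a fold of 65.2. ZNF580 and ZNF581 followed with a shared peak of 55.9, then ZNF460 at 50.5 and ZNF254 at 47.4. The most CTCF peaks fell on ZNF536, with 8 over its 488 kb, then on ZNF69, ZNF875 and ZNF254 with 5 each and ZNF331, ZNF765 and its readthrough ZNF765-ZNF761 with 4 each.

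Members had peaks in 0 to 20 of the 20 lists, with a median of 14.0 against 15.0 over all genes. ZNF331 and ZNF507 had peaks in all 20. ZNF331, which is imprinted in human tissues, had 4, 4, 6 and 5 NKX2-1 peaks in line order, and ZNF507 had 7, 7, 6 and 5. They were followed by ZNF274, ZNF254 and ZNF714 with 19 each. At the other end, 27 members (10.8%, all genes 23.1%) had peaks in at most 8 lists, and ZNF208, ZNF492 and ZNF404 had none in any (all genes 6.16%).

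Of these 27 members, 9 were consecutive genes. In the cluster from ZNF737 to ZNF91, the genes from ZNF208 to ZNF728 (chr19:21939815-23003176), singled out after their values were seen, had peaks in 0 to 8 lists with a median of 2.00. The 13 members before them, ZNF737 to ZNF43, had peaks in 12 to 19 lists, and the 3 after them, ZNF730 to ZNF91, in 15 to 16. The block was chosen by these same counts, so the contrast with its neighbours is a description and supports nothing. All 20 lists together held 53 peaks in the block, or 49.8 per Mb, against 446 and 575 per Mb on either side. Of the 53, NCI-H358 supplied 33 from its 3 lists, NCI-H2087 10 from 11 lists, NCI-H441 10 and HCC364 none. The genes of the block are ZNF208, ZNF257, ZNF676, ZNF729, ZNF98, ZNF492, ZNF99, ZNF723 and ZNF728. Of the 11 members with no H3K4me3 in NCI-H2087, 8 lie in this block and the others are ZNF556, ZNF177 and ZNF404. Genes in such tandem clusters can be near-copies. How reads with several placements were treated was not given in the sources used here, and its part in the low counts was not tested.

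Members lying within 250 kb of each other formed 26 groups, of which 14 held at least 3 members and 237 in all. By the rule that 1 line exceed every other line by at least 25 percentage points, 2 of 42 combinations of cluster and antibody stood out, both in a cluster of 3 genes, ZNF546, ZNF780B and ZNF780A. NKX2-1 was at all 3 in HCC364, at 1 in NCI-H2087 and at 2 in NCI-H358 and NCI-H441, while H3K4me1 was at all 3 in NCI-H441, at 2 in NCI-H2087 and HCC364 and at 1 in NCI-H358. The step of 33.3 points is a single gene in each case. No other cluster met the rule for NKX2-1, H3K27ac or H3K4me1.

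A cluster falling short of every other line by the same margin, a rule added after the values were seen, occurred in 7 of the 42 combinations, 3 of them in the 3 genes from ZNF546 to ZNF780A. H3K4me1 was lowest in HCC364 in 3 others: at 20.0% of the 5 genes from ZNF554 to ZNF77 against 60.0% in the next line, at 60.0% of the 5 from ZNF302 to ZNF792 against 100%, and at 20.0% of the 10 from ZNF787 to ZNF835, 30.0 points under the next line. The remaining case was the largest in number of genes. In the 41 genes from ZNF175 to ZNF331, NKX2-1 was at 53.7%, 97.6%, 90.2% and 82.9% in line order. H3K4me1 in that cluster was at 41.5%, 100%, 95.1% and 51.2%, while H3K27ac was at 92.7%, 100%, 92.7% and 90.2%. ZNF615 is an example, with no NKX2-1 peak in NCI-H2087 and NKX2-1 start folds of 7.52, 7.56 and 14.7 in the other lines, while its start carried H3K27ac in all 4, at 8.92, 27.1, 10.3 and 13.0. The local background solved from the peak values stood in this cluster at 0.674 of the library median for NKX2-1 in NCI-H2087, and at 0.820, 0.732 and 0.881 in the others. The value of 0.674 is the lowest in that list. It was shared by the clusters from ZNF653 to ZNF791, from ZNF101 to ZNF486 and from ZNF737 to ZNF91. NKX2-1 in NCI-H2087 was at 76.0%, 87.5% and 60.0% of their members. The part of the background in the low share was not tested.

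EP300 separated the clusters within NCI-H2087. This comparison was chosen after the values were seen. It was present at 19 of the 26 members from ZNF565 to ZNF573 (73.1%), at 12 of 23 from ZNF575 to ZNF180 (52.2%) and at 21 of 43 from ZNF264 to ZNF446 (48.8%). It was at 2 of 41 from ZNF175 to ZNF331 (4.88%), 2 of 25 from ZNF653 to ZNF791 (8.00%) and 1 of 25 from ZNF737 to ZNF91 (4.00%). The clusters from ZNF565 to ZNF573 and from ZNF175 to ZNF331 had similar shares of H3K4me3 (100% in both), RNAPolII (96.2% and 92.7%) and H3K27ac (96.2% and 92.7%) in NCI-H2087, and CTCF was at 53.8% and 46.3%. They differed there in NKX2-1 (92.3% and 53.7%) and H3K4me1 (65.4% and 41.5%) as well as in EP300. The highest EP300 folds at a start were 15.5 at ZNF225, 15.1 at ZNF420 and 14.2 at ZNF444. CTCF was at 3 of 25 members (12.0%) from ZNF737 to ZNF91 and at 0 of 3 from ZNF546 to ZNF780A. The background of the EP300 library was 0.750 of its median from ZNF565 to ZNF573 and 0.833 from ZNF175 to ZNF331. The last value rests on the EP300 peaks called there, and only 2 of the 41 members had one. Neighbouring members can hold the same EP300 peak, as ZNF565 and ZNF146 did, so counts of members are not counts of separate peaks.

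**Figure D4:**
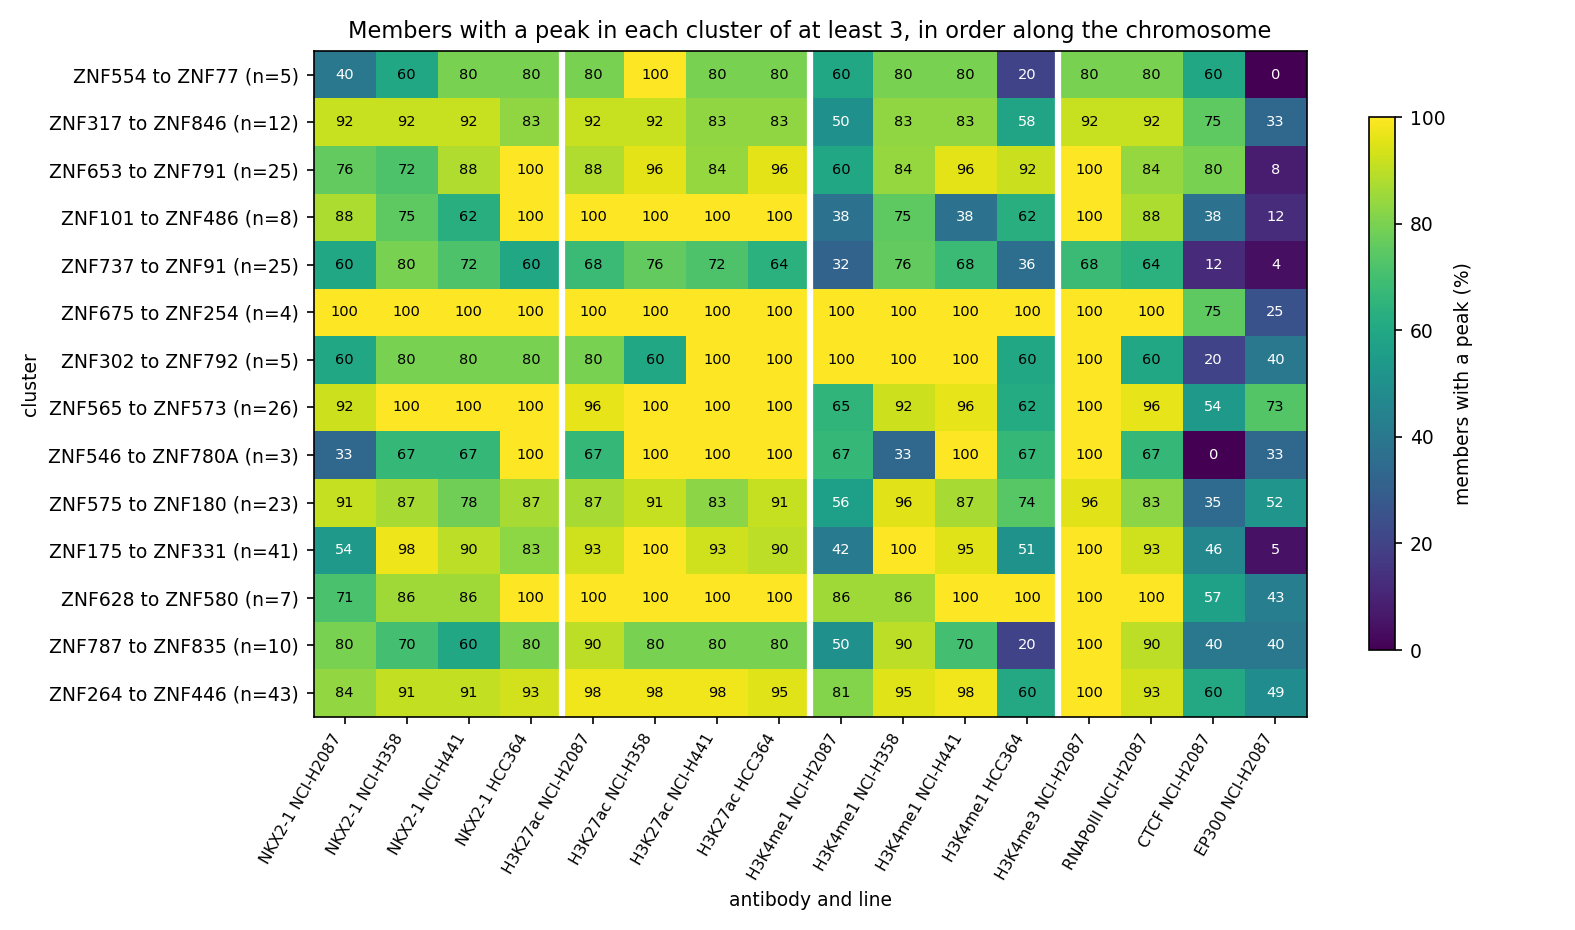
Percent of members with a peak (colour and number) in each of the 14 clusters of at least 3 members (y axis, in chromosome order, with the number of members) for each antibody and line (x axis), 1 library per column. EP300 is at 73.1% from ZNF565 to ZNF573 and at 4.88% from ZNF175 to ZNF331, and NKX2-1 in NCI-H2087 drops to 53.7% in the latter.

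A run of closely spaced peaks next to the zinc finger genes was found in NCI-H358. ZNF565, named because earlier results of these data pointed to it, had 3, 4, 4 and 3 NKX2-1 peaks in its own window in line order, with start folds of 8.55, 5.68, 13.0 and 10.9, and so was not private to a line. Beyond the window, in the interval up to ZFP14 (chr19:36250928-36329453), NCI-H358 had 13 NKX2-1 peaks, 16 H3K27ac peaks covering 30.0 kb and 20 H3K4me1 peaks covering 23.8 kb. The other 3 lines had 0 peaks of all 3 antibodies there. The NKX2-1 peaks lay at a median spacing of 2.56 kb (2.08 to 7.62 kb) and the H3K27ac peaks at 2.52 kb (1.14 to 5.06 kb). The run of H3K4me1 held 19 peaks, at 2.44 kb (0.598 to 6.42 kb). The other H3K4me1 peak of the interval lay apart, 83.1 kb from the right-hand end of ZNF565 and near ZFP14. Folds in the interval were low for NKX2-1, with a median of 4.52 and a highest of 5.78 against 7.78 over the list. They were moderate for H3K27ac, with 7.06 and 10.1 against 8.14. For H3K4me1 the median of 6.19 lay above the 5.58 of the list, with a highest of 8.78. NCI-H2087 had 5 RNAPolII peaks in the interval, with a highest fold of 5.27, and 1 CTCF peak.

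The local background at the NCI-H358 peaks of this interval was 1.32 times the library median for NKX2-1, 1.30 for H3K27ac and 1.17 for H3K4me1, above the 0.900, 0.951 and 0.909 at the ZNF565 to ZNF573 cluster around it. Its part in the run was not tested, nor were copy number and mappability there. NCI-H358 had 10 runs of at least 5 private NKX2-1 peaks with gaps of at most 10 kb in the whole genome and 18 such runs of H3K27ac, where HCC364 had 20 and 338. Of the 18, 3 lay in the cluster from ZNF565 to ZNF573: the run beyond ZNF565, 12 peaks over 43.5 kb at ZNF875 and 5 peaks over 10.9 kb at ZNF793. The scan for runs was added after the data were seen.

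**Figure D5:**
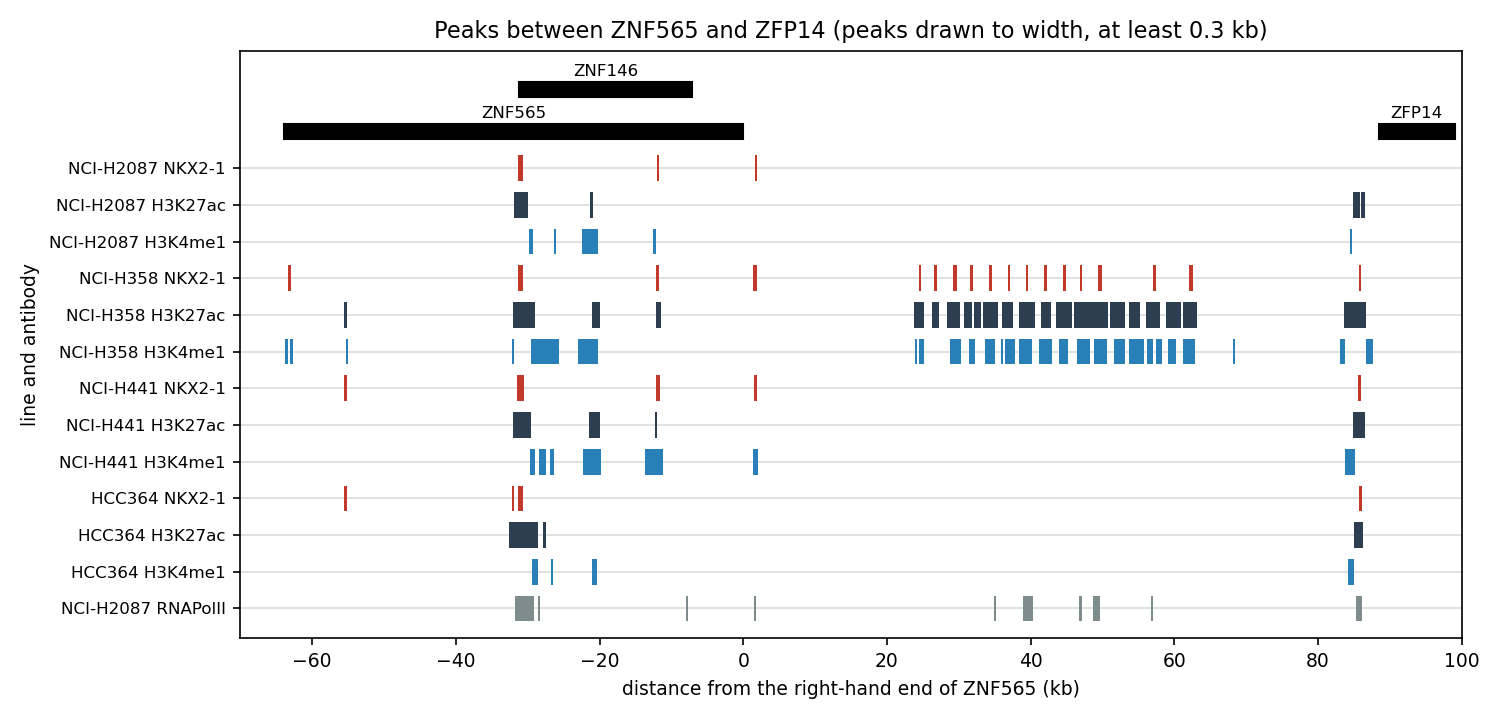
Peaks from ZNF565 to ZFP14, by distance from the right-hand end of ZNF565 in kb (x axis), for NKX2-1, H3K27ac and H3K4me1 in 4 lines and RNAPolII in NCI-H2087 (y axis). Boxes are peaks and black bars genes. NCI-H358 alone has the run of 13 NKX2-1, 16 H3K27ac and 19 H3K4me1 peaks, while the peaks over ZNF565 and at ZFP14 are shared between lines.

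The partners of the KRAB zinc finger proteins, a list of 17 genes that includes TRIM28, SETDB1, the HP1 proteins CBX1, CBX3 and CBX5, DNMT1, CHD4, ATRX and the HUSH subunits TASOR, MPHOSPH8 and PPHLN1, were marked throughout. H3K27ac was at the start of 17 of 17 in each line and H3K4me3 and RNAPolII at 17 of 17 in NCI-H2087, against 66.8% and 54.2% of all genes for the last 2. NKX2-1 was in the window of 15, 17, 16 and 16 of them in line order, where all genes stood at 74.2%, 70.9%, 77.1% and 78.5%. TRIM28, itself on chromosome 19, had 2 NKX2-1 peaks in every line. The 17 zinc finger relatives of chromosome 19 outside the ZNF symbols, such as ZSCAN and ZFP genes, PEG3 and MZF1, had NKX2-1 at 10, 10, 9 and 12 (58.8%, 58.8%, 52.9% and 70.6%), under the shares of all genes, and H3K4me3 in NCI-H2087 at 15 (88.2%, all genes 75.2%). ZFP36, which binds RNA through another kind of finger, falls in that list by its symbol.

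H3K27ac within 1 kb of a gene end was also read at cell type markers, which describes the lines and does not test their label. It was present at 9, 8, 9 and 9 of 9 lung epithelial markers (NKX2-1, SFTPB, NAPSA, KRT7, KRT8, KRT18, CDH1, EPCAM and MUC1) in line order. The marker without it in NCI-H358 was SFTPB. H3K27ac was also at 3, 2, 3 and 2 of 8 markers of immune, endothelial and stromal cells, namely CD3E, CD79A and COL1A1. Over gene windows it was at 8, 7, 8 and 7 of these 8. No share of all genes was computed for gene ends, while at starts it was 56.2% to 58.7%. The lists held 7406 to 121789 peaks. The local background of the NKX2-1, H3K27ac and H3K4me1 lists on chromosome 19 was 0.702 to 0.793 of the library median in NCI-H2087, NCI-H358 and NCI-H441, and 0.860 to 0.909 in HCC364. In NCI-H358 and NCI-H441, and for H3K27ac and H3K4me1 in NCI-H2087, this value is the lowest background solved in the list. In HCC364 it lies above the lowest.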

How the data were processed

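The values are the narrowPeak lists deposited by the authors, 1 library per line and antibody. Bowtie2 2.2.9, SAMtools 1.9, Trimmomatic 0.36, bedtools and MACS2 (2.1.1 and 2.2.7.1) are named in the submitters' processing notes. Which version made which list, and how reads with several placements were treated, was not given in the sources used here. In the deposited lists the fold is a linear ratio of the summit over local background, and p and q are given as −log10. Every deposited list stops near a −log10 q of 3.00. Read depth is unknown, and the lack of a peak does not show the lack of a protein.

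From these lists overlaps of at least 1 bp with gene windows were counted in Python 3.11.15 (pandas 2.3.3). Pileup and local background were solved from fold and p. Shares were compared over the 4 lines with an exact sign-flip permutation test, and all else is description beside the share over all genes. Nothing says that lines were sampled more than once, so spread between lines is all that p-values measure. Named members were the private members with most peaks or covered length in each line, those with no peak or peaks in most lists, the highest H3K4me3 width, CTCF number and RNAPolII fold in NCI-H2087, the members of clusters that stood out, and ZNF565. Other members named singly (such as ZNF444, ZNF865, ZNF615, ZNF880, ZNF490, ZNF225 and ZNF420) were chosen after their values were seen. Promoters came from RefSeq for the 219 members with a start and were aligned with Biopython 1.88. Finger and KRAB counts and input libraries were not analysed here. The overlap counts were tested on simulated data. The members and lists were chosen with earlier results of these data known. Alternatives were the flank, summit, threshold, list length, start window, gene length, line left out and cluster gap.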

Additional observations from a re-analysis of the deposited data

Results flagged for a closer look

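NCI-H358 stood apart from the other 3 lines in the number of peaks between ZNF565 and ZFP14, with 13 for NKX2-1, 16 for H3K27ac and 20 for H3K4me1 against 0 in each other line. The gap was the whole range of the 4 values (1.00), as it is for any count when the other 3 lines have 0. The chromosome 19 background of the HCC364 NKX2-1 library also stood apart, at 0.909 of the library median. In NCI-H358 and NCI-H441 that background was at the lowest value solved in the NKX2-1 list. Chance picks about 1 in 20 such sets, and 4 of the 24 sets examined were picked. The 3 peak counts come from 1 stretch of chromatin that was examined because earlier results had pointed to it, so their being picked is a description and supports nothing.

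With all deposited peaks, H3K4me1 shares went opposite ways in different lines. In HCC364 the members lay -13.8 percentage points from other chromosome 19 genes, while the other 3 lines lay above them. Against ZNF genes on other chromosomes, H3K4me1 in NCI-H2087 was at -22.4 and in HCC364 at -9.19, with NCI-H358 and NCI-H441 above 0. NKX2-1 in NCI-H2087 was at -1.55 against ZNF genes elsewhere, with the other 3 lines above 0. These differences between lines were not tested, since each line and antibody has 1 library.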

How the results depend on the processing

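The excess of H3K27ac over other chromosome 19 genes kept its direction in all 4 lines under every alternative run. Over ZNF genes elsewhere it fell from 5.31 to under 1 percentage point with the 20000 strongest peaks, where NCI-H2087 (-9.39) and NCI-H441 (-0.0375) were below 0. Keeping only the 20000 strongest peaks of each list reversed the NKX2-1 difference from other chromosome 19 genes (-3.02 percentage points) and from ZNF genes elsewhere (-6.82) and the H3K4me1 difference from other chromosome 19 genes (-6.94). A −log10 q of at least 10 also reversed the last (-4.59). By line, that H3K4me1 difference was -5.03, -2.39, -5.02 and -15.3 with the strongest peaks, all below 0. With the stricter q, NCI-H358 (6.44) and NCI-H441 (6.58) stayed above other chromosome 19 genes. Against ZNF genes elsewhere, H3K4me1 was below 0 in all 4 lines under both settings. The H3K4me1 difference from other chromosome 19 genes was 12.7 with no flank and 2.51 with 10 kb. No test could pass a threshold with 4 lines. Leaving out each line gave 11.4 to 14.6 (NKX2-1), 20.0 to 21.6 (H3K27ac) and 1.42 to 12.6 (H3K4me1) against other chromosome 19 genes, and 3.36 to 6.49, 4.86 to 5.80 and -9.66 to -0.141 against ZNF genes elsewhere. The low end of 1.42 left out NCI-H358 and the high end of 12.6 left out HCC364, and -0.141 left out NCI-H2087.

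Counts of members found in 1 line depended most on the settings. With the 20000 strongest peaks they were 51 for NKX2-1 (18 in the report), 30 for H3K27ac (6) and 34 for H3K4me1 (10). With a −log10 q of at least 10, H3K27ac gave 12 and H3K4me1 74. Within 1 kb of a start NKX2-1 gave 30 and H3K4me1 50, and with no flank H3K4me1 gave 24. Of 18 named cases of a member found in 1 line, 3 held with the 20000 strongest peaks, 15 with the stricter q, 13 with no flank, 13 with 10 kb, 17 with summits and 10 at starts. Members with CTCF fell from 127 to 39 with the 20000 strongest peaks and were 69 at starts. Cases of a cluster and antibody above the other lines numbered 7 with a gap of 100 kb, 5 with the strongest peaks, 9 at starts and 0 with an excess of 40 points.

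Among alternatives chosen after seeing the data, the peaks between ZNF565 and ZFP14 fell to 3 for NKX2-1 with the stricter q, and to 0, 1 and 3 for NKX2-1, H3K27ac and H3K4me1 with the strongest peaks. The EP300 difference between clusters was 47.6 points with the stricter q against 68.2. Leaving out the 4 readthrough and divergent symbols changed no direction. Lists could not be paired by replicate number, each line and antibody having 1 library. The permutation test paired members with other genes within each line. Depth per library is unknown, so weak peaks cannot be told from missing ones.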
